A study of Mus musculus with 14 samples.

Results

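Transcripts of 34 genes of DNA replication (S phase) and of mitosis were followed in mammary tumors and glands of MMTV-neu mice. They were the probe sets of the deposited table whose platform gene symbol was one of these genes, and 31 of the 34 were measured by 42 of the 12488 probe sets, 10 of the 11 S phase genes and 21 of the 23 mitotic genes. Tyms, Ccnb1 and Bub1b had no probe set that names 1 gene, and the 2 probe sets that name Tyms beside other genes were not used. MMTV-neu mice carry the neu (erbB2) oncogene behind a viral promoter, MMTV, that is active in mammary epithelium. The arrays held 2 tumors of a second group named set B (80 and 81), 5 tumors of the first set (22, 24, 26, 50 and 52), 4 preneoplastic neu mammary glands that the labels call adjacent (23, 25, 49 and 51), and 3 age-matched wild-type glands (pools 40, 41 and 42). Every wild-type array measured pooled RNA of 5 mice, those of pool 40 at 31 weeks of age on a background of 87.5% FVB and 12.5% CF-1, and those of pools 41 and 42 at 41 weeks on 97% FVB and 3% CF-1. The labels give no age or strain share for the tumors and adjacent glands, and do not say whether each is from a separate animal, or whether neighbouring numbers mark the tumor and gland of 1 animal. The p-values therefore describe the spread between the samples at hand, which may in part be technical.

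In a dividing cell, the MCM proteins form the helicase that opens replication origins, PCNA clamps DNA polymerase to its template, and ribonucleotide reductase (Rrm1 and Rrm2), thymidine kinase and thymidylate synthase supply deoxynucleotides. Later in the cycle, CDK1 with cyclins A and B starts mitosis, the Aurora and Polo-like kinases build the spindle, the spindle checkpoint holds chromosome separation until all kinetochores are attached, and kinesins move spindle and chromosomes. Transcripts of the replication genes are mostly made under E2F factors before and during S phase, and those of the mitotic genes later, under complexes that contain B-Myb and FoxM1, so that in a tissue both sets mark dividing cells. In bulk tissue, fewer dividing cells and less RNA per cell cannot be told apart.

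The promoters of these genes carry different short motifs, which are shown here for 5 of the genes. The sequences are RefSeq's (GRCm38.p6), the 250 bases upstream of the transcript start on the gene's own strand, and capitals mark matches on either strand to an E2F motif (TTTCCCGC, TTTCGCGC, TTTGCCGC or TTTGGCGC), to the cell cycle homology region CHR (TTTGAA) and to the CCAAT box. Rrm2 (chr12:24708004-24708253, plus strand) is shown because it had the largest tumor difference among the members, Mcm5 (chr8:75109259-75109508, plus strand) as an S phase promoter with E2F matches, Cdk1 (chr10:69352913-69353162, minus strand) because it holds all 3 motifs, and Ccnb2 (chr9:70421555-70421804, minus strand) and Cks2 (chr13:51644982-51645231, plus strand) as mitotic promoters with and without a CHR match in this stretch. Mcm5, Cdk1, Ccnb2 and Cks2 were chosen after their motif matches were seen.
Rrm2: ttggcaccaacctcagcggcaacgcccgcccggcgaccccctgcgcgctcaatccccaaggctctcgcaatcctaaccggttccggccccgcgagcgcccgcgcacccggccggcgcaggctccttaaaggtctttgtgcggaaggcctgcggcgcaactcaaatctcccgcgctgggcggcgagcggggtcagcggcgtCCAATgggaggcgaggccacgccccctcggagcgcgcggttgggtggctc
Mcm5: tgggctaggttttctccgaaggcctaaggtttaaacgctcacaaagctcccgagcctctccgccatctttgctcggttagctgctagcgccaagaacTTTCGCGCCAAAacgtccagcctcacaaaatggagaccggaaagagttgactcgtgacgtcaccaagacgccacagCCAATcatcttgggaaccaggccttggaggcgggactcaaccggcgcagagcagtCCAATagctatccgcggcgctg
Cdk1: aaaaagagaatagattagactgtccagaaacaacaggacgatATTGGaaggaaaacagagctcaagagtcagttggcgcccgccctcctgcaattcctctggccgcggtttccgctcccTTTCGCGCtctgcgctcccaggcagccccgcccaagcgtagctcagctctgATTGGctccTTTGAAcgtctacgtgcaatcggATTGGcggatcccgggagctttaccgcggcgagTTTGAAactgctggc
Ccnb2: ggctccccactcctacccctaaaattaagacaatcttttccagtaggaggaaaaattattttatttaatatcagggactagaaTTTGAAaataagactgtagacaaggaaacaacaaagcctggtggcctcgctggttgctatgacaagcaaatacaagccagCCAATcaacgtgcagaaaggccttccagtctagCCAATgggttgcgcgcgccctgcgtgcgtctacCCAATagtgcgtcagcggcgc
Cks2: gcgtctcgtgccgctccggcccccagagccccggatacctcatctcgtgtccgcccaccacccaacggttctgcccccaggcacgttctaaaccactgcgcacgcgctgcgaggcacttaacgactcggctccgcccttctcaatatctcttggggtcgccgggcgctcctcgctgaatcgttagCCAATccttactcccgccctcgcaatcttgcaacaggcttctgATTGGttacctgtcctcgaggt
In windows of 300 bases that add the 50 bases after the start, an E2F match stood in 4 of 10 windows of S phase genes (Mcm3, Mcm5, Mcm6 and one of the 2 windows of Mcm7), in 1 of 17 windows of mitotic genes (Cdk1), and in 2.26% of all 32851 mouse promoter windows of the same length. A CHR match stood in 1 of 10 S phase windows (Mcm2), in 13 of 17 mitotic windows and in 17.9% of all windows. The CCAAT box was shared, with 9 of 10 S phase windows, 14 of 17 mitotic windows and 37.4% of all windows. Within the 250 upstream bases alone, CHR matches were found in 8 of the 17 mitotic windows. In Mcm5, 2 E2F matches overlap. A match describes the letters only, and no window for Mcm4, Ccna2, Aurkb, Foxm1 or Kif20a was searched.

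Each probe set has 1 intensity per array on a linear scale, and a floor of 101 and a log2 transform were applied before testing. Intensities depend on the probes, so levels are compared between arrays and not between genes. After a filter on dim probe sets 8616 were tested, among them those of 29 members, 9 of S phase and 20 mitotic. Mcm6 and Bub1 did not pass: Mcm6 was at or near the floor on every array (at most 158.8), and Bub1, whose kinase is a part of the spindle checkpoint, read 291.2 to 398.8 in tumors and 230.2 to 251.2 in wild-type pools, untested. Luminal keratins, claudins and other luminal genes summed to 80123 to 112421 in set B, 86273 to 135234 in tumors, 60174 to 94035 in adjacent glands and 53215 to 56872 in wild-type pools (13 of 13 genes measured). They did not all move alike: 8 were called higher in tumors than in wild-type pools, and Krt19 was called lower (-5.78 ± 0.64, limma adjusted p = 5.95e-06). Krt7 differed by -0.41 ± 0.63 and was not called. White adipocyte genes summed to 5391 to 6367 in set B, 4326 to 10133 in tumors, 86170 to 147429 in adjacent glands and 170477 to 251194 in wild-type pools (9 of 11 measured). Basal genes summed to 2964 to 3052 in set B, 2053 to 4698 in tumors, 11240 to 22738 in adjacent glands and 16484 to 19662 in wild-type pools (8 of 9 measured). Krt5 was at the floor on every array of both tumor sets, and Krt15 on every array of all groups. Krt17, also basal, went the other way, by 0.78 ± 0.33 in tumors against wild-type pools (limma adjusted p = 0.083). The labels give 5 lot batches, called lots here, and by number none joined tumors to wild-type pools. Tumors 22, 24 and 26 shared lot 2001815 with adjacent glands 23 and 25. Lot 2004907 held adjacent glands 49 and 51 with pool 40, and tumors 50 and 52 (lot 2004097), pools 41 and 42 (lot 2003877) and set B (lot 2006609) had lots of their own.

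**Figure D1:**
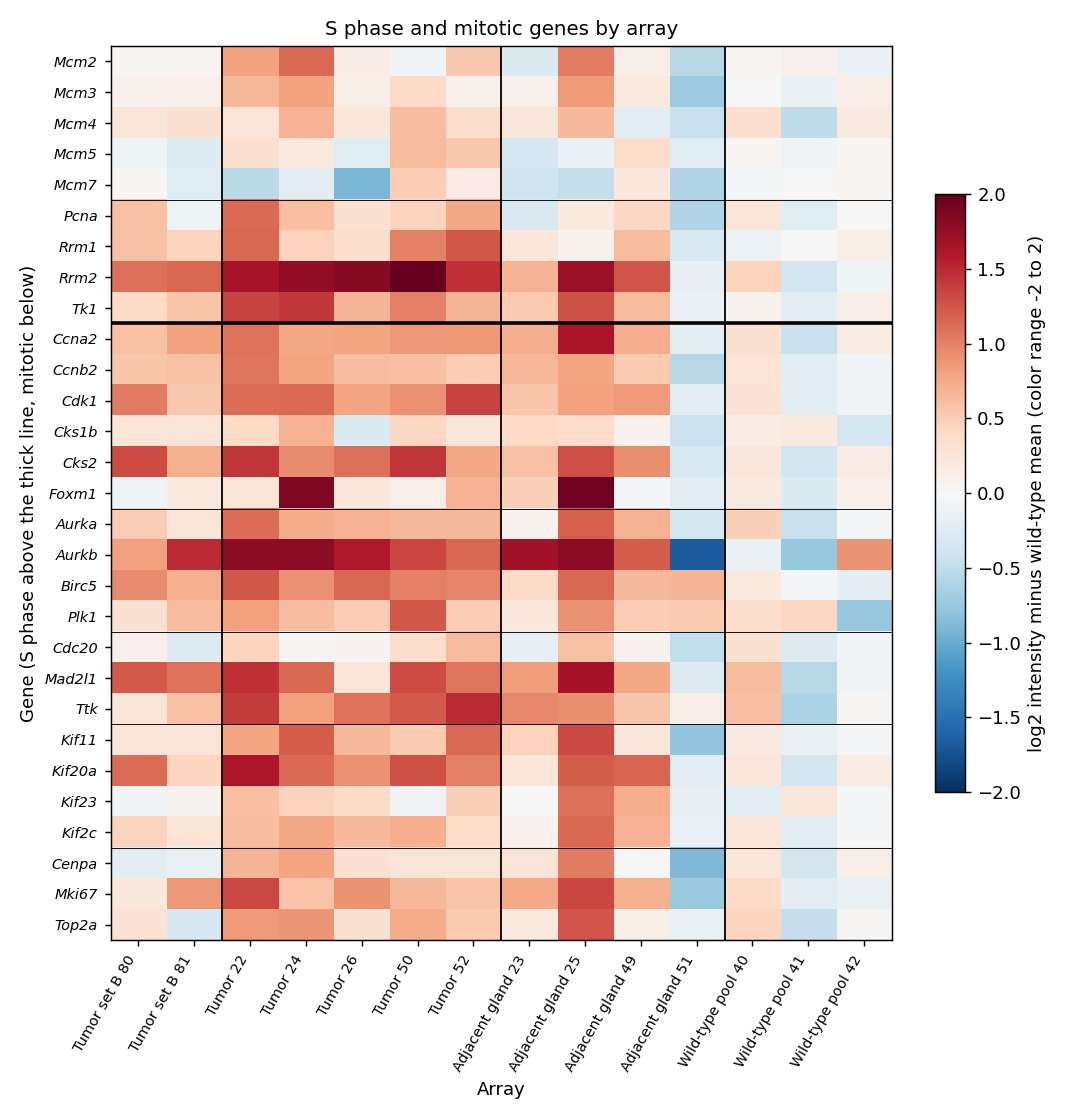
Heat map of the 29 tested genes (rows) on the 14 arrays (columns), grouped by role, with color giving log2 intensity minus the mean of the 3 wild-type pools on a scale of -2 to 2. The 5 tumors and adjacent gland 25 are mostly red, adjacent gland 51 is mostly blue, and the MCM genes in the top rows are paler than the rows of Rrm2, Tk1, Cdk1, Birc5 and Kif20a.

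The first question was whether tumors carried more of these transcripts than wild-type gland. Of the 29 members tested, 11 rose in tumors and 0 fell at an adjusted p under 0.05 (limma), against 15.8% of all probe sets that rose and 14.1% that fell. They were Rrm2, Tk1 and Rrm1 among 9 S phase genes, and Birc5, Cdk1, Ttk, Kif20a, Cks2, Ccna2, Ccnb2 and Mad2l1 among 20 mitotic genes. The median log2 difference was 0.51 for the S phase genes and 0.79 for the mitotic genes, beside 0.16 for all probe sets, and it was above 0 in 28 of 29 members. Every tumor exceeded every wild-type pool in 4 of 9 S phase and 14 of 20 mitotic genes, against 18.7% of all probe sets, and every tumor lay below every pool in 0 members, against 16.1%. The summed luminal genes were also higher in tumors, as given above, while 4 of 5 tested basal genes were called lower. The part of tissue composition in the members' differences was not tested. The log2 ratio of 3' to 5' actin probes was 0.08 to 0.76 in tumors and 0.90 to 1.51 in wild-type pools, without overlap. For Gapdh probes this ratio was 1.48 in pool 42 and -0.50 to 0.43 on the other arrays. Whether these ratios bear on the members' differences was not tested. Wild-type pool 41 read lowest of the 14 arrays in 12 members, against 9.39% of all probe sets, and without it 5 members were called. Rrm2, Birc5, Cdk1 and Tk1 stayed called when each of the 14 arrays was left out in turn. Mad2l1, Ccnb2 and Ccna2 stayed called in 4, 6 and 8 of these 14 fits.

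Among the S phase genes, those that make deoxynucleotides differed most. Values are listed in the order of the array numbers throughout. Rrm2, the small subunit of ribonucleotide reductase, read 1686 and 1738 in set B, 2461, 2672, 2762, 3155 and 2153 in tumors, 1252, 2555.5, 1877 and 695.6 in adjacent glands, and 1071, 604.5 and 741.2 in wild-type pools. All 7 tumors lay above all wild-type pools, and adjacent gland 25 lay among the first tumors while gland 51 lay among the pools. In tumors Rrm2 was 3.35-fold higher than in wild-type pools, a log2 difference of 1.74 ± 0.33 (SE, limma adjusted p = 8.39e-04). Rrm1, the large subunit of the same enzyme, read 1712 and 1547 in set B, 2517, 1569.9, 1458, 2284.5 and 2693 in tumors, 1334, 1196, 1759 and 912.4 in adjacent glands, and 1054, 1129 and 1242 in wild-type pools. Tumors 22, 50 and 52 were high and tumors 24 and 26 lower, but all of them exceeded the pools. The tumor difference of Rrm1 was 0.84 ± 0.25 (adjusted p = 0.0189), and a second, dim probe set of this gene did not pass the filter. Tk1, thymidine kinase of the cytosol, which salvages thymidine for DNA synthesis, read 2225 and 2457 in set B, 4278, 4467, 2677, 3388 and 2686 in tumors, 2416.5, 4075, 2596 and 1538 in adjacent glands, and 1772, 1450.1 and 1842 in wild-type pools. Tumors 22 and 24 and adjacent gland 25 were highest, and tumors and pools did not overlap. Tk1 was 2.03-fold higher in tumors (1.03 ± 0.27, adjusted p = 0.00888), whereas a second probe set of Tk1 read between the floor and 1015 with a difference of -0.26 ± 0.68 (adjusted p = 0.801).

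Pcna, the sliding clamp, read 8247 and 5141 in set B, 12064.5, 8313, 6769, 7457 and 9408 in tumors, 4379, 6282, 7339 and 3629 in adjacent glands, and 6503, 4624 and 5477 in wild-type pools. Every tumor lay above every pool, with tumor 22 highest, yet the difference of 0.65 ± 0.25 was not called (adjusted p = 0.0622).

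Of the 5 tested MCM helicase subunits 0 were called between tumors and wild-type pools (limma), with log2 differences of 0.51 ± 0.32 for Mcm2, 0.41 ± 0.28 for Mcm3, 0.43 ± 0.26 for Mcm4, 0.29 ± 0.21 for Mcm5 and -0.20 ± 0.28 for Mcm7, and adjusted p-values of 0.232 to 0.616. Their median was 0.41, and that of Pcna, Rrm1, Rrm2 and Tk1 was 0.93; the difference between these groups of genes was not tested. Tumors and pools overlapped in all 5. A second probe set of Mcm3 was called, with 1578, 1452, 1004, 1104 and 1317 in tumors against 893, 635.6 and 642 in wild-type pools, a difference of 0.83 ± 0.27 (adjusted p = 0.0285). The suffix of the brighter probe set, which stands for Mcm3, marks probes that may match more than 1 transcript. Among the 5 tested MCM genes Mcm7 had the largest SD within tumors, 0.56 on the log2 scale. It read 3047 and 2415 in tumors 50 and 52 and 1140 to 1854 in tumors 22, 24 and 26, against 2091, 2169 and 2214 in wild-type pools. Tumors 50 and 52 were thus above the pools and the other 3 tumors below them, and the division of the tumors is also that of the lots, 2004097 against 2001815. In adjacent gland, too, the higher of the values, 2507 in gland 49, came from lot 2004907, but gland 51 of the same lot read 1415, below both glands of lot 2001815 (1639 and 1555).

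**Figure D2:**
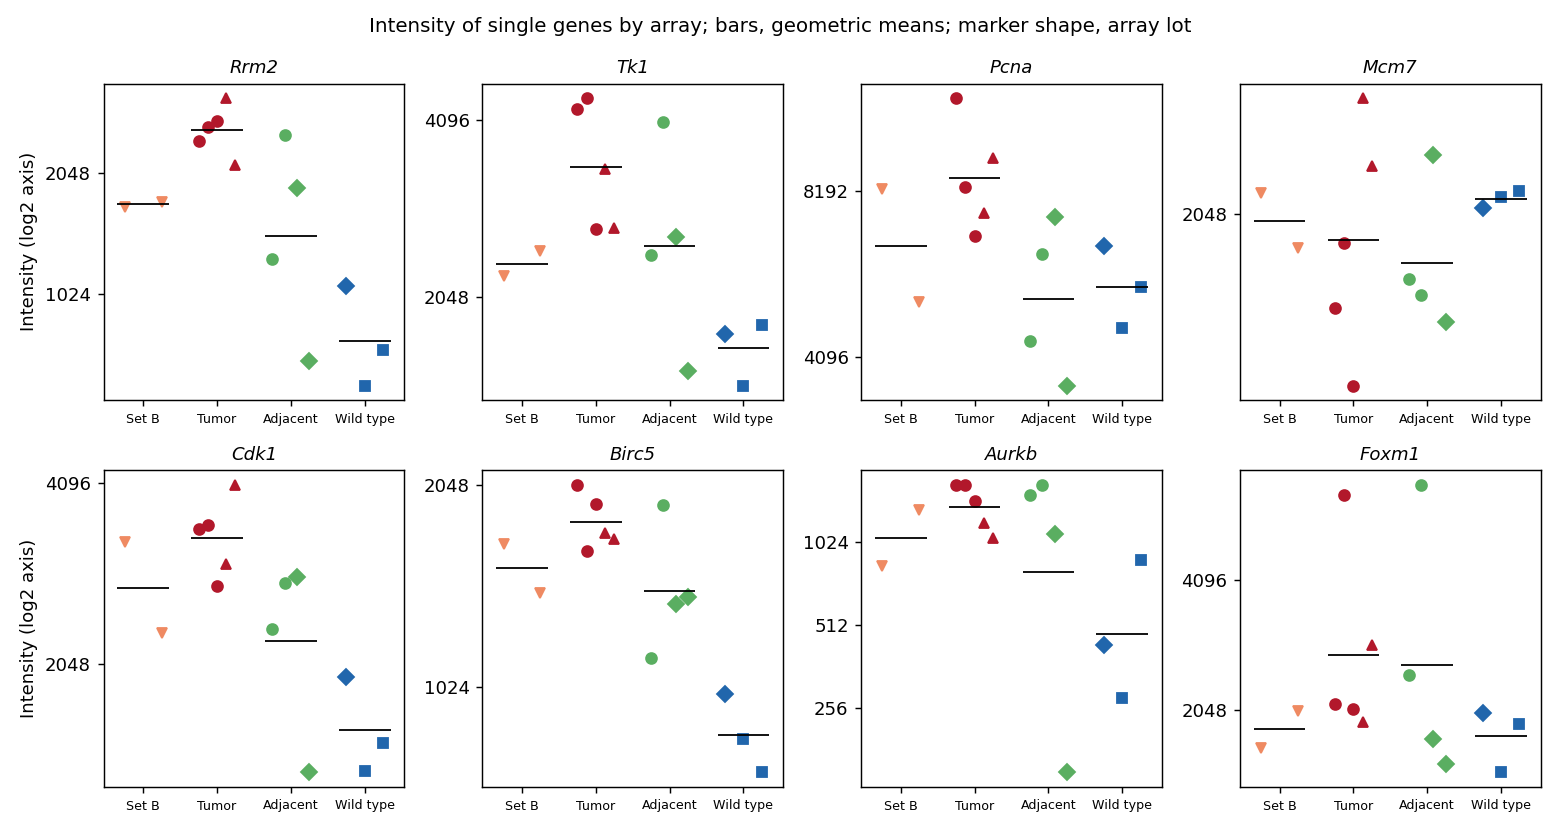
Intensity on a log2 axis of 8 genes on each array by group, with horizontal bars for geometric means and marker shapes for array lots (circle 2001815, square 2003877, upward triangle 2004097, diamond 2004907, downward triangle 2006609). Rrm2, Tk1, Cdk1 and Birc5 place all tumors above all wild-type pools, Mcm7 splits the 5 tumors around the pools, and Foxm1 is high in 1 tumor and 1 adjacent gland.

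The kinase that starts mitosis and its partners rose together in tumors. Cdk1, the mitotic kinase, read 3270.2 and 2308 in set B, 3439, 3489, 2760.3, 3007 and 4074 in tumors, 2344, 2792, 2859 and 1353 in adjacent glands, and 1952, 1359 and 1516 in wild-type pools. No tumor of either set overlapped the pools, and adjacent gland 51 was the lowest of the 14 arrays. Cdk1 was 2.09-fold higher in tumors than in wild-type pools (1.06 ± 0.25, limma adjusted p = 0.00387). Its partner Ccna2, the cyclin A of S phase and mitosis, read 2549 and 2990 in set B, 3612, 2896, 2936, 3117 and 3120.3 in tumors, 2825, 5263.5, 2827 and 1460.1 in adjacent glands, and 2094, 1246 and 1891.5 in wild-type pools. Adjacent gland 25 stood above every tumor, and the 5 tumors were close together. For Ccna2 the tumor difference was 0.88 ± 0.30 (adjusted p = 0.0378). Ccnb2, a B-type cyclin of mitosis, read 5752 and 5929 in set B, 8221, 6825, 6028, 5970.5 and 5615 in tumors, 6249.7, 6773, 5643 and 2677 in adjacent glands, and 4754, 3373 and 3785 in wild-type pools. All 7 tumors and 3 of the 4 adjacent glands were above the pools, and gland 51 was below them. The tumor difference of Ccnb2 was 0.72 ± 0.26 (adjusted p = 0.0438).

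The small CDK-binding proteins Cks1b and Cks2 differed in size of change. Cks2 read 2811 and 1869.7 in set B, 3080.5, 2195, 2439, 3079.9 and 1945 in tumors, 1707, 2780.3, 2176 and 924.8 in adjacent glands, and 1329, 870 and 1277.5 in wild-type pools. Tumors and pools did not overlap, and the difference was 1.14 ± 0.31 (limma adjusted p = 0.0106). Cks1b, whose groups overlapped (2448 to 4837 in tumors, 2355 to 3416 in wild-type pools), had a difference of 0.29 ± 0.24 (adjusted p = 0.372). The difference between these differences was not tested. Foxm1, a forkhead factor of the mitotic transcript program, read 6472 in tumor 24 and 6821 in adjacent gland 25, and 1464 to 2889 on the other 12 arrays. Its tumor difference was 0.63 ± 0.44 (adjusted p = 0.301). On these arrays the mitotic median stood 0.81 above the wild-type mean in tumor 24, below tumor 22 (1.08), and 1.17 in adjacent gland 25, the highest of the 14 arrays. The arrays with high Foxm1 are both from lot 2001815, and the suffix of this probe set marks probes that may match more than 1 transcript. A dimmer second probe set of Foxm1 did not pass the filter. It read 121.4 in tumor 24 and 151.7 in gland 25, against up to 531.4 in tumor 50.

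Among the kinases and their passenger, Birc5 (survivin), a subunit of the complex that brings Aurora B to kinetochores, had the smallest adjusted p of the mitotic genes. It read 1675 and 1413 in set B, 2051, 1630.4, 1919, 1739.5 and 1701.5 in tumors, 1129, 1914, 1361.5 and 1393 in adjacent glands, and 996.4, 854.5 and 761.7 in wild-type pools. Every array with the transgene was above every wild-type pool. Birc5 was 2.08-fold higher in tumors (1.06 ± 0.20, limma adjusted p = 9.67e-04). Aurkb, the Aurora kinase of that complex, had a larger difference with a larger error (1.53 ± 0.61, adjusted p = 0.0685), and read 1052 to 1644 in tumors, 150 to 1642 in adjacent glands and 432, 278.8 and 881.4 in wild-type pools. The error comes from the model over all groups, and the SD of log2 Aurkb was 0.29 in tumors, 1.63 in adjacent glands and 0.84 in wild-type pools. Aurka, the Aurora kinase of spindle poles, differed by 0.77 ± 0.33 (adjusted p = 0.0892), and in both Aurora genes every tumor exceeded every pool. Plk1, the Polo-like kinase, had 3 probe sets that disagreed in call. The brightest of them differed by 0.74 ± 0.28 (adjusted p = 0.0536), one by 1.30 ± 0.30 (adjusted p = 0.00417) and one by 0.47 ± 0.40 (adjusted p = 0.395), and their suffixes mark probes that may match more than 1 transcript.

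The spindle checkpoint genes Ttk and Mad2l1 rose, and Cdc20, the activator of the anaphase-promoting complex that the checkpoint holds back, did not pass the test. Ttk, the kinase also called Mps1, read 445.9 and 553.8 in set B, 963.7, 649.9, 780.5, 856.2 and 1036 in tumors, 717.8, 697.2, 540.6 and 401.8 in adjacent glands, and 556.5, 237.6 and 373.8 in wild-type pools. All first-set tumors were above the pools, whereas both set B tumors fell between them. Its tumor difference was 1.21 ± 0.31 (limma adjusted p = 0.00842). Mad2l1, which encodes the checkpoint protein MAD2, read 1770.2 and 1611 in set B, 2084, 1689, 896.2, 1869 and 1597 in tumors, 1348, 2408, 1303 and 637.2 in adjacent glands, and 1174, 514.6 and 722.3 in wild-type pools. Tumor 26 fell below pool 40, so the groups overlapped, and the difference was 1.05 ± 0.38 (adjusted p = 0.0482). Cdc20 differed by 0.30 ± 0.24 (adjusted p = 0.36), with 2668 to 4065 in tumors and 2211 to 3261 in wild-type pools.

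Of the 4 mitotic kinesins, Kif20a, a motor of the central spindle and cytokinesis, rose in tumors. It read 1728 and 1079 in set B, 2448, 1751, 1502, 1938 and 1614 in tumors, 946.4, 1855, 1789 and 689.3 in adjacent glands, and 937, 617.5 and 882.5 in wild-type pools. All 7 tumors were above the pools, and the adjacent glands lay at both ends. The tumor difference of Kif20a was 1.19 ± 0.32 (limma adjusted p = 0.0102), and a dimmer probe set without the family suffix of the first differed by 0.76 ± 0.42 (adjusted p = 0.183). Kif11, which pushes spindle poles apart, differed by 0.86 ± 0.36 (adjusted p = 0.0849), Kif2c, which shortens microtubules at kinetochores, by 0.63 ± 0.29 (adjusted p = 0.11), and Kif23, a partner in cytokinesis, by 0.37 ± 0.30 (adjusted p = 0.383). The chromosome proteins had differences of 0.80 ± 0.36 for Mki67, which codes for the Ki-67 antigen used to stain dividing cells, 0.66 ± 0.32 for Top2a, the topoisomerase that untangles chromosomes, and 0.46 ± 0.34 for Cenpa, the histone variant of centromeres, with adjusted p-values of 0.104, 0.14 and 0.331. Mki67 read 3424, 2039, 2571, 2177 and 2033 in tumors and 1798, 1171 and 1234 in wild-type pools, which did not overlap. By a dimmer second probe set of Mki67 the groups overlapped, with 315.5 to 984.8 in tumors and 388.4 to 797.8 in wild-type pools. Set B read 280.5 and 324.3 there, below every pool.

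**Figure D3:**
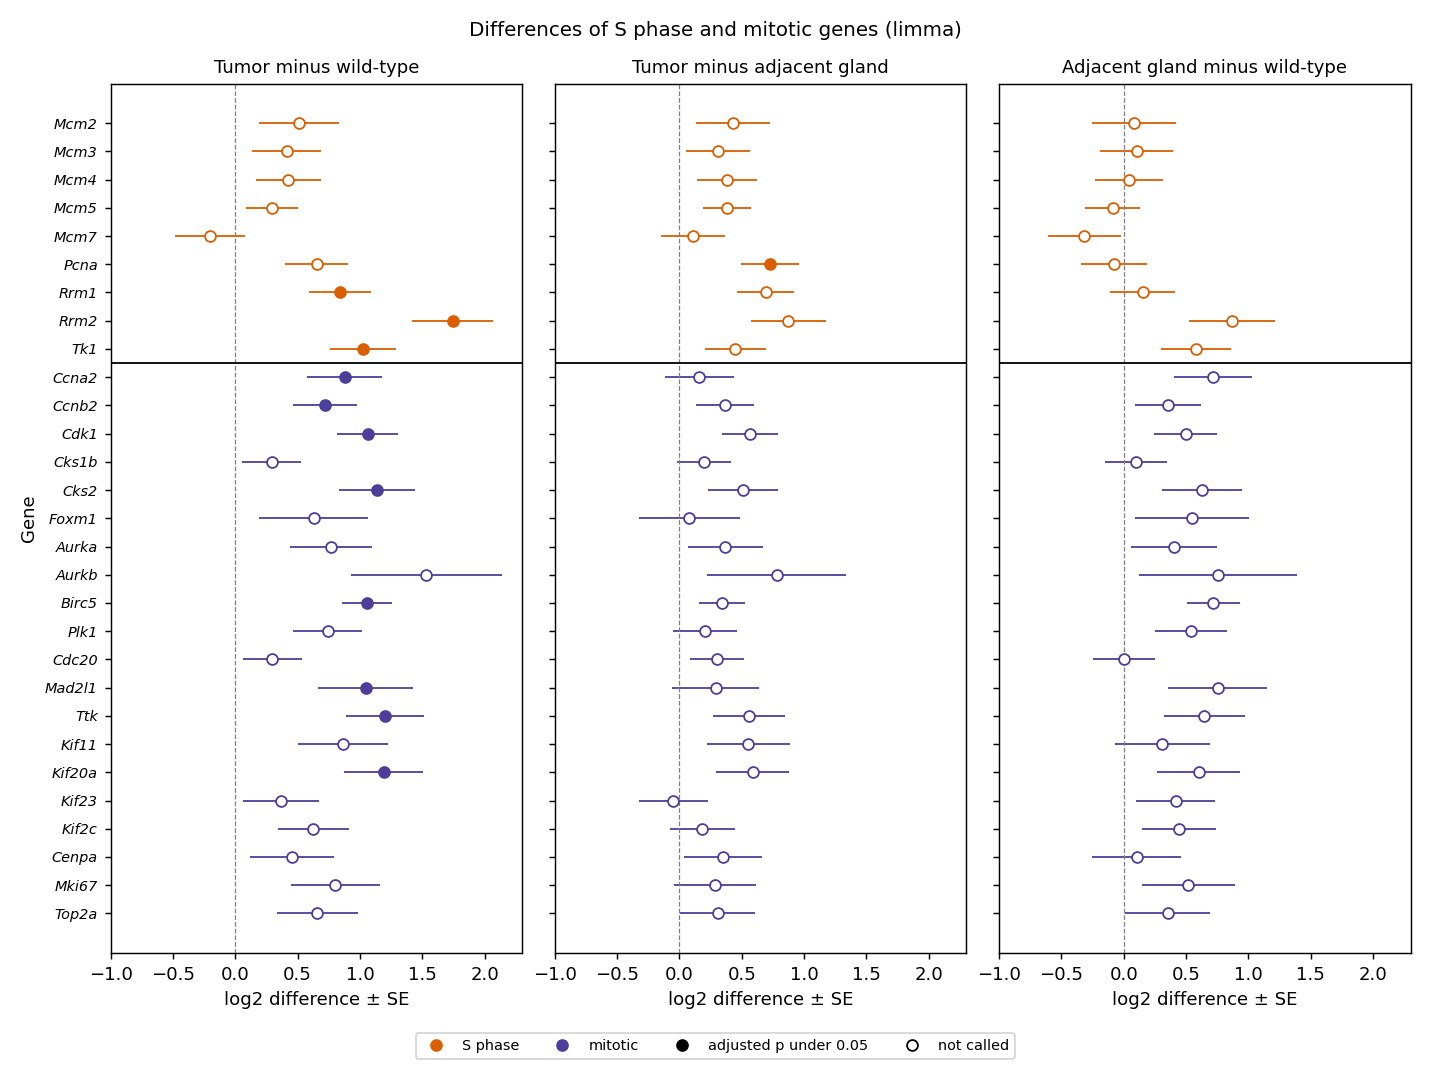
Log2 difference ± SE (limma) of the 29 genes in 3 comparisons, S phase genes above the line in orange and mitotic genes below in purple, filled where the adjusted p is under 0.05. In tumors minus wild-type pools 11 genes are filled, in tumors minus adjacent glands Pcna is, and in adjacent glands minus wild-type pools 0 are.

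The tumor differences were then set beside values that account for lot. With lot as a fixed block (limma), 0 of the 11 members were called, and the median tumor difference was 0.36 for the S phase genes and -0.15 for the mitotic genes, of which 7 of 20 were above 0. Because no lot holds both groups, the blocked difference is that of tumors minus adjacent glands in lot 2001815 plus that of adjacent glands minus pool 40 in lot 2004907. In the first of these steps the medians were 0.32 (S phase) and -0.01 (mitotic), and in the second, where pool 40 is the lone wild-type array, -0.15 and -0.27. Pool 40 was also the only pool of 31 weeks and 12.5% CF-1. Its mitotic median stood 0.27 above the wild-type mean, the highest of the pools. Age and strain background of the wild-type mice thus change with lot in the blocked difference and cannot be told apart from it. Rrm2 had 0.65, Birc5 0.81, Rrm1 0.77 and Kif20a 0.73 with the block, while Mad2l1 had -0.66, Ccna2 -0.34, Ccnb2 -0.19 and Ttk -0.10. The numbers 2004097 and 2004907 differ by a transposition, and with them taken as 1 lot all 11 members had positive differences, 0 were called, and the medians were 0.38 and 0.28. Leaving out lot 2001815, which leaves tumors 50 and 52, kept 7 of the 11 calls (Rrm2, Rrm1, Tk1, Birc5, Cdk1, Ttk and Mad2l1) with medians of 0.59 and 0.74. With lot as a random block 8 of the 11 stayed called, all but Ccna2, Ccnb2 and Mad2l1. Lot and group cannot be told apart in this comparison beyond these values.

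**Figure D4:**
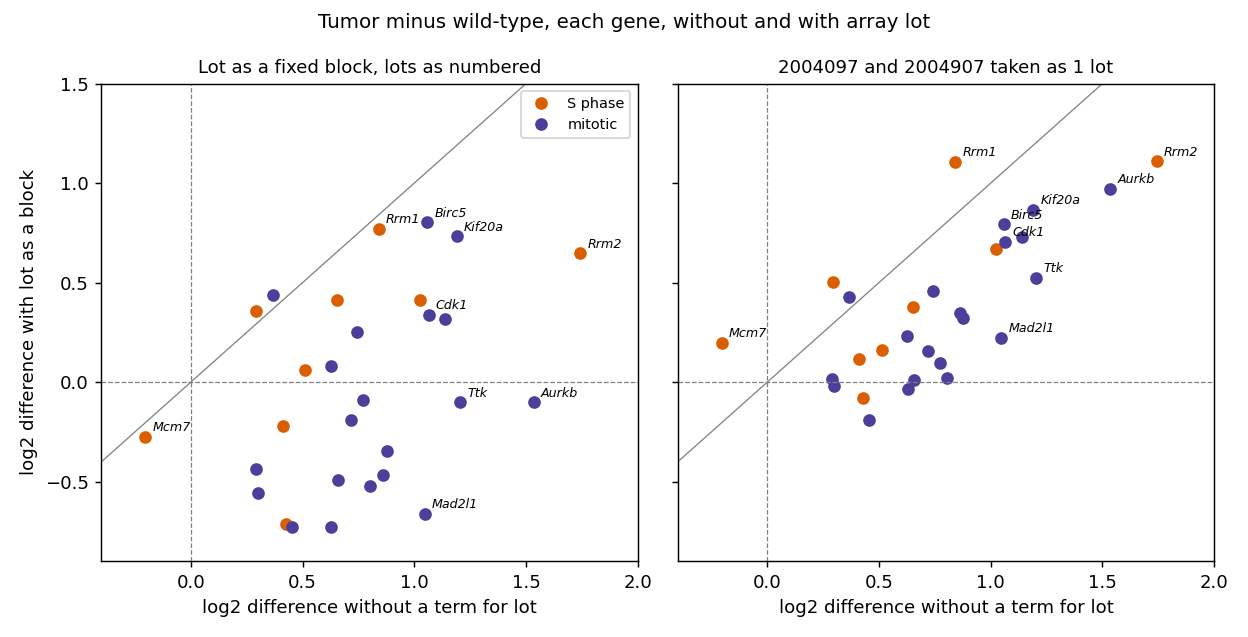
Tumor minus wild-type log2 difference of each gene without a term for lot (horizontal axis) against the difference with lot as a fixed block (vertical axis), with lots as numbered (left) and with 2004097 and 2004907 taken as 1 lot (right); the diagonal marks equal values. On the left, 7 of 20 mitotic genes lie above 0, and on the right 17 of 20 do.

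S phase and mitotic genes were then compared within each array, as the median over each class of log2 intensity minus the wild-type mean, without a test. Tumors had S phase medians of 0.80, 0.69, 0.22, 0.62 and 0.54 and mitotic medians of 1.08, 0.81, 0.65, 0.73 and 0.68. In set B the S phase medians were 0.24 and 0.11 and the mitotic medians 0.38 and 0.49. Adjacent glands had 0.11, 0.64, 0.36 and -0.45 for S phase genes and 0.43, 1.17, 0.67 and -0.24 for mitotic genes, and wild-type pools 0.04, -0.13 and 0.05 and 0.27, -0.27 and -0.04. The mitotic median thus exceeded the S phase median on all 11 arrays with the transgene and in pool 40. The S phase minus mitotic median averaged -0.26 ± 0.17 in set B (SD, n = 2), -0.21 ± 0.14 in tumors (n = 5), -0.34 ± 0.13 in adjacent glands (n = 4) and 0.00 ± 0.19 in wild-type pools (n = 3), where a mean near 0 follows from centring each gene on these pools. The gap was largest in adjacent gland 25 (-0.53) and tumor 26 (-0.43). A scaling factor common to an array cannot change it, and it averaged -0.21 in tumors and -0.31 in adjacent glands after quantile normalization. Within lot 2004907, the gap of adjacent glands 49 and 51 was -0.31 and -0.21, against -0.22 in pool 40. The gaps of the tumors ran from -0.43 to -0.11, so that of pool 40 lay within their range. All gaps are measured from the same 3 pools.

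**Figure D5:**
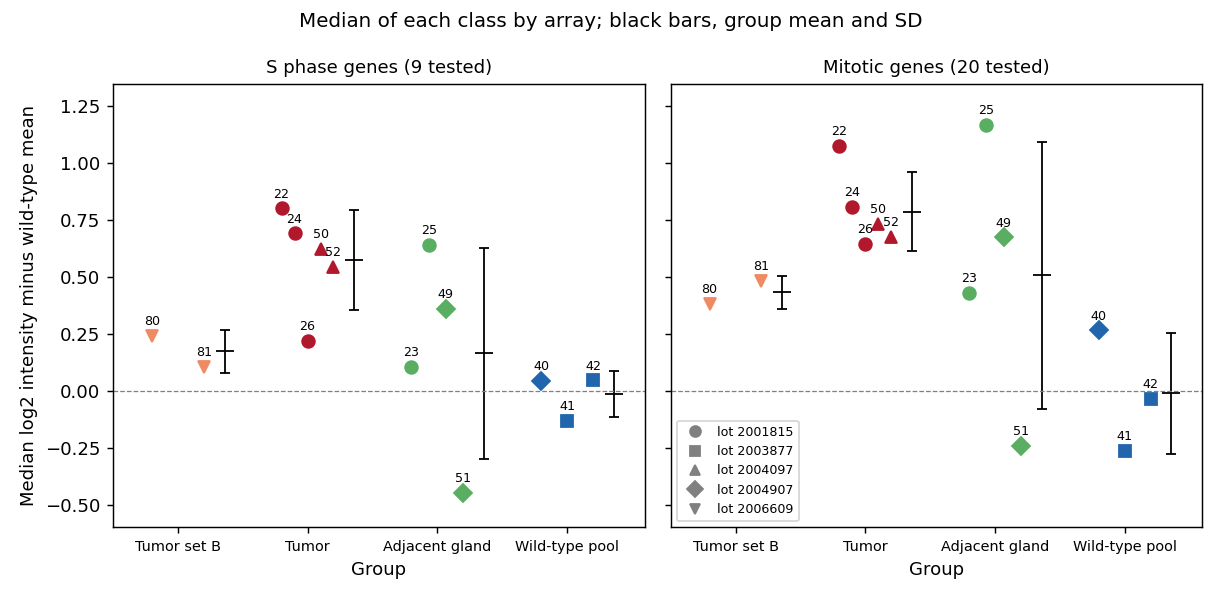
Median log2 intensity minus the wild-type mean over 9 S phase genes (left) and 20 mitotic genes (right) on each array, labelled by array number, with marker shapes for lots and black bars for the group mean ± SD. Adjacent glands spread from -0.45 to 0.64 (S phase) and from -0.24 to 1.17 (mitotic), more widely than tumors at 0.22 to 0.80 and 0.65 to 1.08.

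By their medians the 5 tumors ranked alike in both classes, in the order 22, 24, 50, 52 and 26 from the highest. Single members did not all follow this order. Tumor 22 had the highest medians of both, and read highest of the tumors in 10 of 29 members and lowest in 0. Tumor 24 read highest in 11 and lowest in 4. With arrays scaled to a common median it read highest in 2 and lowest in 9, against 17.5% and 32.5% of all probe sets. Tumor 22 then read highest in 13, against 19.7%. Tumor 26 read lowest of the tumors in 12 members, among them Mcm7, Rrm1, Tk1, Pcna, Cdk1 and Mad2l1, yet its Rrm2 (2762), Birc5 (1919) and Mki67 (2571) were the second highest among tumors. Over all probe sets as deposited, tumors 22, 24 and 26 read highest among tumors in 17.2%, 28.6% and 15.6%, and lowest in 17.8%, 20.5% and 13.7%. Tumors 50 and 52 had similar medians (0.62 and 0.54 for S phase, 0.73 and 0.68 for mitotic genes), and tumor 50 had the highest Rrm2 (3155) and Mcm7 (3047) of all arrays and tumor 52 the highest Cdk1 (4074) and Ttk (1036).

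The next question was whether the preneoplastic gland around tumors already differed from wild-type gland. None of the 29 members was called in adjacent glands (0, limma), against 0.72% of all probe sets called higher and 0.453% lower. An unadjusted p under 0.05 was found in 3 of 29 members, no larger a share than the 14.8% of all probe sets. The smallest adjusted p belonged to Birc5 (0.72 ± 0.21, adjusted p = 0.108), where all 4 adjacent glands exceeded all 3 pools, as they did in 0 of 9 S phase genes, 1 of 20 mitotic genes and 7.6% of all probe sets. In 0 members did all adjacent glands lie below all pools, against 6.82%. The median difference was 0.08 for S phase genes and 0.51 for mitotic genes, beside 0.07 for all probe sets, and with arrays scaled to a common median the S phase value turned to -0.09 while the mitotic value was 0.34. These differences rest on glands that were far apart: the mitotic median was 0.23 without gland 25 and 0.70 without gland 51, and 2 members were called without gland 51. Rrm2 had a difference of 0.87 ± 0.34 (adjusted p = 0.252), Mad2l1 of 0.76 ± 0.40 (adjusted p = 0.39) and Ccna2 of 0.72 ± 0.31 (adjusted p = 0.301). Within lot 2004907, where glands 49 and 51 stood beside pool 40, the medians were -0.15 for S phase and -0.27 for mitotic genes. Pool 40 was the only pool of 31 weeks.

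Adjacent gland 25 read within or above the range of the tumors in many members. It read highest of the 4 adjacent glands in 22 of 29 members and highest of all 14 arrays in 11, against 35.6% and 18.1% of all probe sets. After quantile normalization these counts were 21 and 9, against 31.2% and 14.9%. With arrays scaled to a common median they were 18 and 4, against 24.7% and 9.62%. Gland 25 exceeded every tumor in Ccna2 (5263.5), Mad2l1 (2408), Top2a (1390), Kif23 (1146), Kif2c (1229.5), Cenpa (1472), Aurka (1169) and others, and was within the range of tumors in Rrm2, Tk1, Cdk1, Birc5 and Kif20a. In Rrm1 and Pcna, by contrast, it read 1196 and 6282, below every tumor. The array of gland 25 had the highest median intensity (784.1, against 543.7 to 713 on the others) and a log2 ratio of 3' to 5' actin probes of 1.52, where tumors had 0.08 to 0.76, other adjacent glands 0.38 to 1.13 and wild-type pools 0.90 to 1.51. Its luminal genes summed to 60174, the lowest of the adjacent glands, and its B cell and T cell genes to 4377 and 2708, against 2371 to 2476 and 1027 to 1975 in wild-type pools. Gland 49 had sums of 9108 and 4347, gland 23 of 2368 and 1470, and gland 51, with low values in most members, of 4198 and 2486. The part of array brightness and lymphocytes in the values of gland 25 was not tested.

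Adjacent gland 51 stood at the other end. It read lowest of the adjacent glands in 26 of 29 members, against 28.4% of all probe sets, and in 24 after quantile normalization, against 24.3%. It was lowest of the 14 arrays in 12 members, against 8.19%. Aurkb read 150 in gland 51 and 1093 to 1642 in the other adjacent glands, Mki67 825 and 2248 to 3469.5, and Kif11 288.5 and 583 to 1243.5. In Birc5 it did not stand apart (1393, against 1129 to 1914). Its luminal genes summed to 82176 and its white adipocyte genes to 147429, the highest of the adjacent glands (86170 to 115700 in the others) and below the wild-type pools (170477 to 251194). Whether the fat content bears on its low values was not tested.

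Between tumors and adjacent glands, 1 of 29 members was called, against 5.34% of all probe sets called higher and 9.04% lower. Pcna was higher in tumors by 0.73 ± 0.23 on the log2 scale (limma adjusted p = 0.0457), a 1.66-fold difference, although gland 49 (7339) exceeded tumor 26 (6769). The call of Pcna was lost when any of 9 of the 14 arrays was left out, but within lot 2001815 the difference was 0.75. Ribonucleotide reductase came next, with 0.69 ± 0.23 for Rrm1 (adjusted p = 0.0574) and 0.87 ± 0.30 for Rrm2 (adjusted p = 0.0654). A probe set of Plk1 other than the brightest was called (0.89 ± 0.28, adjusted p = 0.0416). Every tumor exceeded every adjacent gland in 0 of 9 S phase and 0 of 20 mitotic genes, against 4.96% of all probe sets, and lay below them in 0 members, against 7.85%. The median difference was 0.43 for S phase and 0.32 for mitotic genes, beside 0.07 for all probe sets. The mitotic median was 0.09 without gland 51 and 0.58 without gland 25, and the S phase median 0.22 and 0.66. In lot 2001815, with 3 tumors and 2 adjacent glands, the medians were 0.32 and -0.01, and without that lot 0.59 and 0.64.

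The 2 set B tumors were included to see whether changes in the first tumors recur. Against the same wild-type pools, which both sets share, 1 of 29 members was called higher in set B, against 11.2% of all probe sets higher and 12% lower. It was Birc5 (0.83 ± 0.25, limma adjusted p = 0.0263), and this call was lost without either set B array, pool 41 or pool 42, while 3, 5 and 2 members were called without gland 25, gland 51 and pool 40. Median differences were 0.25 for S phase and 0.46 for mitotic genes. Set B has a lot of its own, so a fixed block for lot cannot adjust these differences. Lot and set cannot be told apart in them. Rrm2 had 1.13 ± 0.41 (adjusted p = 0.0576), Mad2l1 1.16 ± 0.47 (adjusted p = 0.0925), Cks2 1.01 ± 0.38 (adjusted p = 0.0685) and Cdk1 0.79 ± 0.31 (adjusted p = 0.0749). Both set B tumors exceeded all pools in 3 of 9 S phase and 10 of 20 mitotic genes, against 29.9% of all probe sets, and were below all pools in 1 S phase gene, Mcm5, against 27.5%.

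Set against the first tumors directly, set B read lower in 27 of 29 members, and 0 were called (limma), as were 0% of all probe sets. At an unadjusted p under 0.05 there were 1 member (Ttk, -0.77 ± 0.36, adjusted p = 0.456) and 932 probe sets (10.8%). The median difference was -0.41 for S phase and -0.32 for mitotic genes, beside -0.06 for all probe sets, and -0.24 and -0.15 with arrays scaled to a common median. Both set B tumors were below all 5 first tumors in Rrm2, Tk1, Top2a, Aurka, Kif11, Ttk and Cenpa, 2 of 9 S phase and 5 of 20 mitotic genes, against 10.7% of all probe sets. They were above all 5 in 0 members, against 6.2%. Mad2l1 and Mcm7 had differences above 0 (0.11 ± 0.43 and 0.10 ± 0.32). Set B has a lot of its own, so lot and set cannot be told apart here.

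Other genes of the same pathways were counted from lists that do not overlap the members. Of 38 tested genes of DNA replication 5 rose in tumors against wild-type pools and 0 fell (limma), with a median of 0.30, beside 15.8% of all probe sets that rose and a median of 0.16; the share in the list was no higher. Chaf1b, a histone chaperone of replicating chromatin, had a difference of 1.16 ± 0.25 (adjusted p = 0.00237), Rpa1, which coats single-stranded DNA, 0.72 ± 0.18 (adjusted p = 0.00555), Uhrf1, which brings DNA methylation to new strands, 1.14 ± 0.35 (adjusted p = 0.021), and Pole2, a subunit of DNA polymerase epsilon, 1.34 ± 0.44 (adjusted p = 0.0323). Of 29 tested genes of mitosis 8 rose and 0 fell, beside the same 15.8%, with a median of 0.69. Wee1, the kinase that restrains CDK1, differed by 1.56 ± 0.33 (adjusted p = 0.00215), the cytokinesis genes Ect2 by 1.28 ± 0.28 (adjusted p = 0.00266) and Prc1 by 1.53 ± 0.35 (adjusted p = 0.00378), and Cdca3 by 1.38 ± 0.34 (adjusted p = 0.0057). Among 9 tested genes of the E2F, RB and B-Myb complexes 3 rose, beside the same 15.8%: E2f5 (0.98 ± 0.24, adjusted p = 0.00672), E2f1 (1.19 ± 0.37, adjusted p = 0.0226) and E2f8 (1.26 ± 0.41, adjusted p = 0.0277), and 0 fell. The probe sets of E2f1 and Cdca3 carry the family suffix, which marks probes that may match more than 1 transcript. Pole2 (1.39 ± 0.41, limma adjusted p = 0.0297) and Wee1 (1.21 ± 0.31, adjusted p = 0.0128) were also higher in tumors than in adjacent glands.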

How the data were processed

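RNA of 14 mammary samples was measured on 1-color oligonucleotide arrays. The authors deposited 1 linear intensity per probe set and array; the software that made it is not stated. The 2%-trimmed mean was 1500.7 to 1500.9 on every array, so no further normalization was applied. Values under 101.42 (the 20th percentile of all values, printed as 101) were set to it and log2 was taken. Of 12488 probe sets, 66 controls were left out and 3806 dim ones were removed, those above their array's 40th percentile on fewer than 3 arrays. Genes were named through the platform annotation (10855 probe sets with 1 symbol, 396 with several, 1237 with none). Where a gene had several probe sets, the brightest by mean log2 stands for it, and others are given where they disagree.

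All arrays entered 1 model with 4 groups in limma 3.58.1 (R 4.3.3; lmFit and trended eBayes; residual df 10, prior df 5.75). Tests are two-sided, with Benjamini-Hochberg adjustment over the 8616 probe sets tested in each comparison; a call is an adjusted p under 0.05. Errors of differences are standard errors. The steps were tested on simulated data, and precision is limited by how few arrays there are. Lot was tried as a fixed and as a random block, and each array was left out in turn. Further alternatives were other floors, scalings and filters, eBayes without a trend, and only the groups compared. Leaving out lot 2001815 was chosen after seeing the data. Members and gene lists were chosen with earlier results of these data known. Members called in at least 1 comparison have their values printed on every array, other members are given more briefly, and up to 4 called genes of each further list are named by smallest adjusted p. Promoter motifs were searched in RefSeq windows on both strands.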

Additional observations from a re-analysis of the deposited data

Results flagged for a closer look

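Over the 29 members and the 2 class medians, 62 sets of values in groups of 4 or 5 arrays were examined for a sample far from the rest of its group, and 2 were found; chance alone flags about 1 in 20. Aurka read 1113 in tumor 22, where the other 4 tumors lay between 803 and 854. Aurkb read 150 in adjacent gland 51, where the other 3 adjacent glands lay between 1093 and 1642.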

How the results depend on the processing

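No paired analysis was possible because the groups share no replicate numbers; the labels do not say whether neighbouring numbers are from 1 animal, and no pairs were assumed. In tumors against wild-type pools, 11 members were called higher; 0 were with lot as a fixed block, 0 with lots 2004097 and 2004907 as 1 lot, 7 without lot 2001815, and 5 (without pool 41) to 15 (without gland 51) when an array was left out. With the fixed block the differences of Ccna2 (-0.34), Ccnb2 (-0.19), Mad2l1 (-0.66), Mcm3 (-0.22) and Ttk (-0.10) reversed, and over all members 13 of 29 differences were above 0, against 28 of 29 without it. The difference of Tk1 also reversed by its other probe set (-0.26). With quantile normalization, without a trend or without a filter, 8 of the 11 stayed called, all but Ccna2, Ccnb2 and Mad2l1. With a common median 8 stayed called, all but Ccnb2, Mad2l1 and Rrm1. In set B against the pools 1 member was called. There were 4 with a common median, 5 with only the arrays compared and 2 without lot 2001815. With lot as a random block there were 0, and with an array left out 0 to 5. A fixed block cannot adjust set B, which has a lot of its own. Between tumors and adjacent glands 1 was called, Pcna. There were 2 with a common median and 1 with the 2 lots as 1, a member other than Pcna. There were 0 without a filter, without a trend, with only the arrays compared and with lot as a fixed or random block. Within lot 2001815 or without it there were also 0, and with an array left out 0 to 2. In adjacent glands against the pools 0 to 2 were called with an array left out. The cause of these changes was not tested.

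Over all probe sets, tumors against pools called 2574, but 360 with the fixed block and 921 with the 2 lots as 1, and 1774 to 2853 with an array left out. Adjacent glands against pools called 101, but 53 without a filter, 56 and 26 with these 2 blocks, 28 with only the arrays compared, 157 without lot 2001815, and 14 to 200 with an array left out; with a common median 31 of 89 were higher, against 62 of 101. Tumors against adjacent glands called 1239, but 597 with the fixed block, 209 within lot 2001815, and 878 to 1379 with an array left out. Set B against pools called 1998, but 579 and 962 with the 2 blocks, and 1053 to 2192 with an array left out. Set B against the first tumors called 0, but 1 without a filter, 1 without lot 2001815, and 0 to 3 with an array left out. For set B no counts with the fixed blocks are given, because its lot holds no other group. Scaling to a common median moved the mean over arrays of the median of all probe sets to 0.15 in set B (0.05 as deposited) and to -0.10 in adjacent glands (0.07 as deposited). Leaving out lot 2001815 was added after seeing the data. Values near the floor (2.32% of those tested) have no order.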
